A study of Lathyrus oleraceus with 4 samples.

Results

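Unopened flower buds of pea (Pisum sativum, also classed as Lathyrus oleraceus) of the cultivar Arka Chaitra were compared after heat and without it, by RNA sequencing of 2 of the 4 samples in the series. The samples were chosen by their titles and library names. One is the heat library, from plants held at 35 °C for 2 h and harvested at once, and the other is the control library, from plants kept in a growth chamber at 22 °C with nights of 16 °C. The other 2 samples are a heat and a control library of Matar Ageta under the same conditions, and their values are used only beside those of Arka Chaitra. The submitters describe Arka Chaitra as heat-tolerant and Matar Ageta as susceptible. The genotype tag of every sample names the other cultivar (tag and title matched in 0 of 4 samples), so the names of the tolerant and the susceptible cultivar may be exchanged, and "Arka Chaitra" here stands for the libraries that carry this name in their titles. The labels do not say how many plants or buds went into a library. The tissue is labelled as flower, and since no identifier carries a gene name, floral marker genes could not be looked up to check it.

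Plant cells answer a short heat episode by releasing heat stress transcription factors from repression, which switch on chaperones such as the small heat shock proteins and the HSP70, HSP90 and HSP100 families within minutes. Many transcripts of growth and housekeeping functions decline over the same period. Developing anthers and pollen are among the plant tissues most readily damaged by heat, and the time before the flower opens includes stages at which pollen is formed.

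With 1 library per treatment there is no repeat of either treatment, and no test across plants was possible. Each library was deposited as 2 numbered columns of estimated counts that no label explains. The columns were treated as repeats of unknown origin, and a difference was called column-consistent when the lower of the 2 heat columns was at least 2-fold above the higher of the 2 control columns, or the reverse. The ratio of these nearest columns is called the gap, and it carries a pseudocount of 0.5 CPM, where CPM is the count scaled to library size. Column totals lay between 10411488 and 12898178 counts, and 1 CPM was 10.8 to 12.9 counts in a column. The table lists 127533 assembled genes, called entries because an assembly can split a gene into several, and 63276 of them (49.6%) reached 1 CPM in the heat or the control library. None of the identifiers (0) matched the reference table of 65673 pea genes, so entries are described by their values, and only 2 per direction are printed by identifier.

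After heat, 3908 entries were at least 2-fold higher in every pairing of a heat with a control column, which is 6.18% of the 63276 measured. In the other direction 2525 entries, or 3.99%, were at least 2-fold lower in every pairing. Without a fold threshold, 15689 entries (24.8%) had both of their heat columns above those of the control, and 13914 (22%) had both below. A random order of the 4 columns would give 16.7% each way. Columns of the same library need not be independent, so any difference between the 2 libraries, from heat or not, can raise these shares. The called increases were also larger than the decreases. The median gap was 3.46-fold for entries that were higher and 2.95-fold for those that were lower. A gap of 8-fold or more was found for 693 higher entries (1.1% of those measured) and 210 lower ones (0.332%). Of calls near the threshold, 331 of the 3908 higher and 324 of the 2525 lower entries had a log2 gap under 1.1, and 399 and 360 more entries fell short of 1 by at most 0.1.

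The excess of higher over lower calls was not independent of the columns used. Higher entries made up 60.7% of all calls. The share was 61.8% without heat column 1 and 71.6% without heat column 2, and it was 48.9% without control column 1 and 49.8% without control column 2. Other counts moved with the columns too. Entries without overlap of columns came to 21383 above and 24063 below without control column 1, and to 21604 above and 23992 below without control column 2. Gaps of 8-fold or more came to 1133 higher and 1175 lower without control column 1, 1191 and 1091 without control column 2, 1617 and 510 without heat column 1, and 2984 and 483 without heat column 2. The call counts themselves grew when a column was dropped, to between 6679 and 13268 higher entries and between 4863 and 6985 lower entries, since a gap over 3 columns is easier to reach than one over 4. Each time they rose by more entries in the direction where the library that lost a column was the higher. The gap reads the lower column of that library, which is then its only one. The change of balance therefore cannot show that the excess rests on the control columns.

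**Figure D1:**
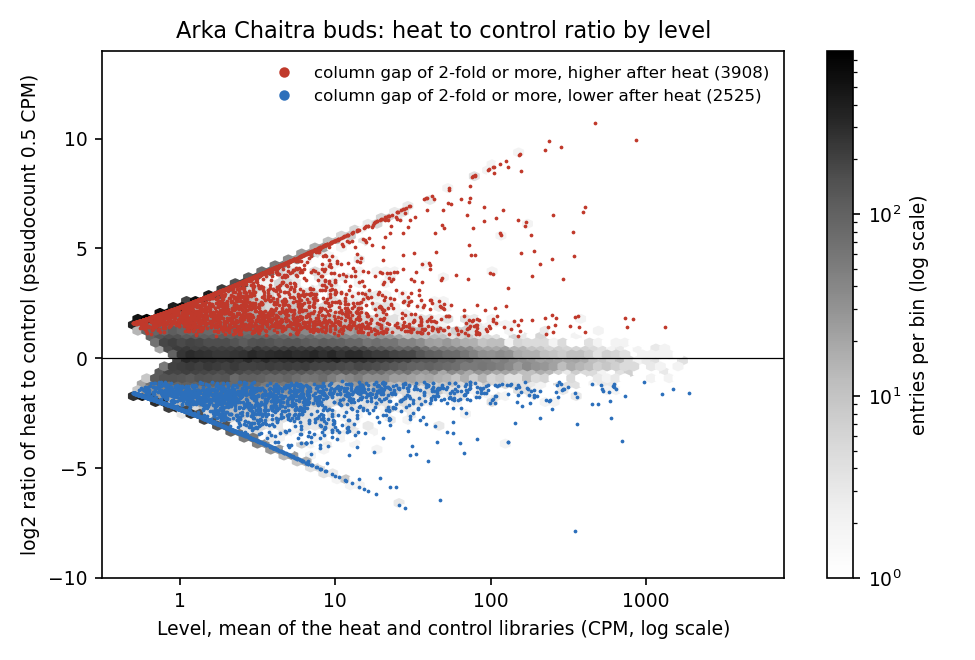
The log2 ratio of the heat to the control library is drawn against the mean CPM of both libraries on a log axis, with all 63276 measured entries as grey bins and the called entries as points. The 3908 higher entries reach further from 0 than the 2525 lower ones, and straight edges on the left are entries with 0 counts in one library.

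The 2 entries of each direction that are printed here were picked by rule among calls with at least 10 CPM in both columns of the higher library: the largest gap, and the highest level. Their function is not given by the files. TRINITY_GG_68082_c0_g1 had 956 and 934 CPM in the heat columns, against 0 and 0.110 CPM in the control columns. It was nearly absent without heat and ranked 57th in the heat library. Its library values were 946 CPM after heat (exact Poisson 95% interval 933 to 958) and 0.0599 CPM in the control (0.00107 to 0.235), where it rests on 1 count. The log2 ratio was 10.72 with the pseudocount and 13.95 without it, with a counting interval of 11.98 to 19.76. TRINITY_GG_41082_c0_g1 was abundant in both libraries, at 1971 and 1890 CPM in the heat columns and 671 and 753 CPM in the control columns. The columns of each library lay close together and did not overlap with those of the other. Its log2 ratio was 1.43, with an interval of 1.41 to 1.46, and it ranked 6th in the heat library and 123rd in the control library.

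In the lower direction, TRINITY_GG_43893_c0_g1 had 0 counts in both heat columns and 57.2 and 54.7 CPM in the control columns. It was at least 432-fold lower after heat, taking 3 counts in the heat library as the limit that a count of 0 allows, and the exact counting interval of its log2 ratio ended at -8.46. TRINITY_GG_59621_c0_g1 had 988 and 891 CPM in the heat columns, against 3670 and 2154 CPM in the control columns. It ranked 58th in the heat library and 7th in the control library, and its gap was 2.18-fold although its control columns differed from each other. Its log2 ratio was -1.59 over the libraries, and -1.19 without control column 1 or -1.96 without control column 2. The intervals given here cover counting error only and say nothing of the spread between plants.

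The 20 largest gaps of each direction differed in size and in level. Those that were higher had 96.4 to 1756 CPM in the heat columns and at most 1.40 CPM in any control column, and 13 of the 20 had 0 counts in both control columns. All 20 had a gap of at least 194-fold. The 20 largest gaps in the lower direction had at most 0.605 CPM in any heat column and 11.6 to 95.3 CPM in the control columns. Of these, 12 had 0 counts in both heat columns, and the gaps began at 24.2-fold. Near absence in one treatment and presence in the other follow from picking the largest gaps.

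**Figure D2:**
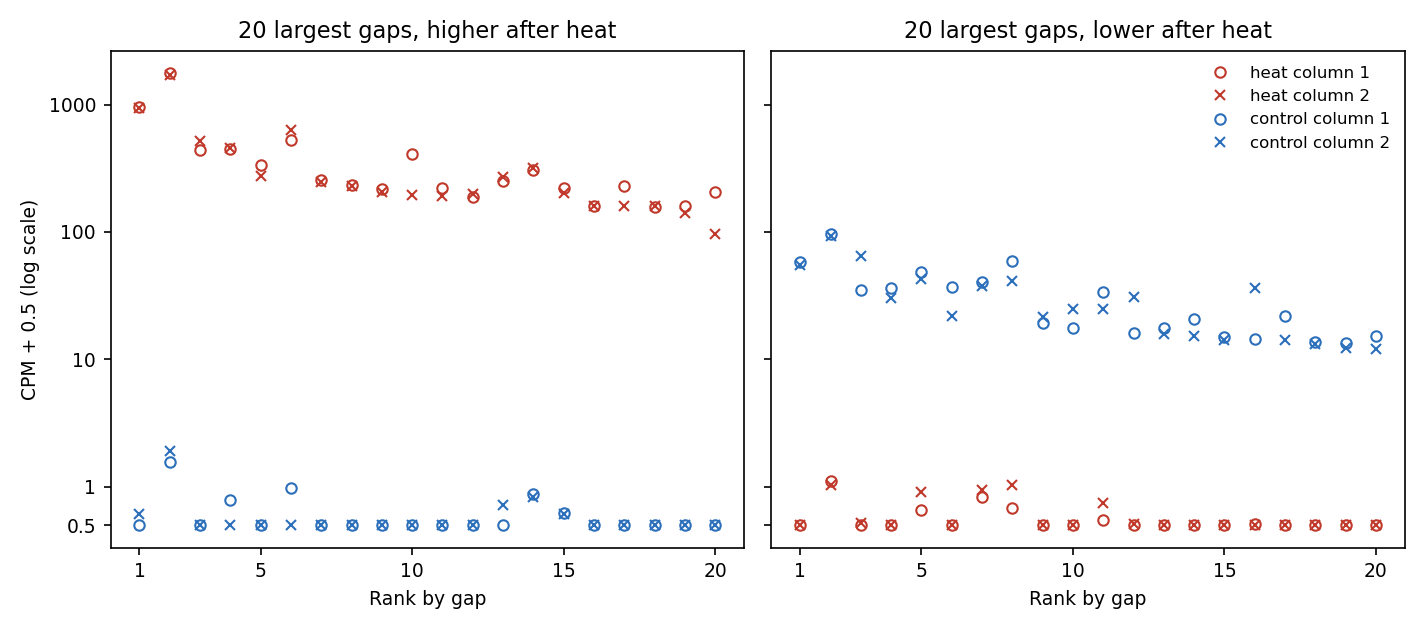
CPM plus 0.5 on a log axis in each of the 4 columns, for the 20 called entries with the largest gap in each direction and at least 10 CPM in both columns of the higher library. Heat columns are red and control columns blue; on the left heat lies between 96.4 and 1756 CPM, and on the right control lies between 11.6 and 95.3 CPM.

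Over all calls, increases were the more numerous at every size of gap, with 2291 higher and 1794 lower entries at 2-fold to 4-fold and 303 higher and 45 lower at 16-fold or more. With at least 10 CPM in both columns of the higher library there were 729 higher calls (1.15% of measured entries) and 538 lower calls (0.850%). Among these the small changes were more often decreases, with 342 higher and 414 lower entries at gaps of 2-fold to 4-fold. The large changes were mostly increases: 237 entries had a gap of 16-fold or more in the higher direction (0.375%) and 28 in the lower (0.0443%). An entry with 10 CPM and no count in the other treatment has a gap of at least 21-fold by construction, so such entries can only fall in the class of 16-fold or more, which has no upper end.

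The 237 large increases spanned 10.6 to 1738 CPM in the heat library with a median of 27.9 CPM, and 51 of them reached 100 CPM. Both control columns held 0 counts for 141 of them and stayed under 1 CPM for 199. The 2 heat columns had a median absolute log2 difference of 0.14, near the 0.16 of all entries at 10 to 30 CPM. They lay 2-fold or more apart for 7 entries, and the rule disfavours such entries because it uses the lower heat column. By their selection the 237 entries were abundant after heat and scarce without it, and together they made up 2.24% of the heat library, against 0.0187% of the control library. The 28 large decreases had a median of 23.4 CPM in the control library, and none (0) reached 100 CPM. They made up, again by their selection, 0.000951% of the heat library and 0.0873% of the control library.

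**Figure D3:**
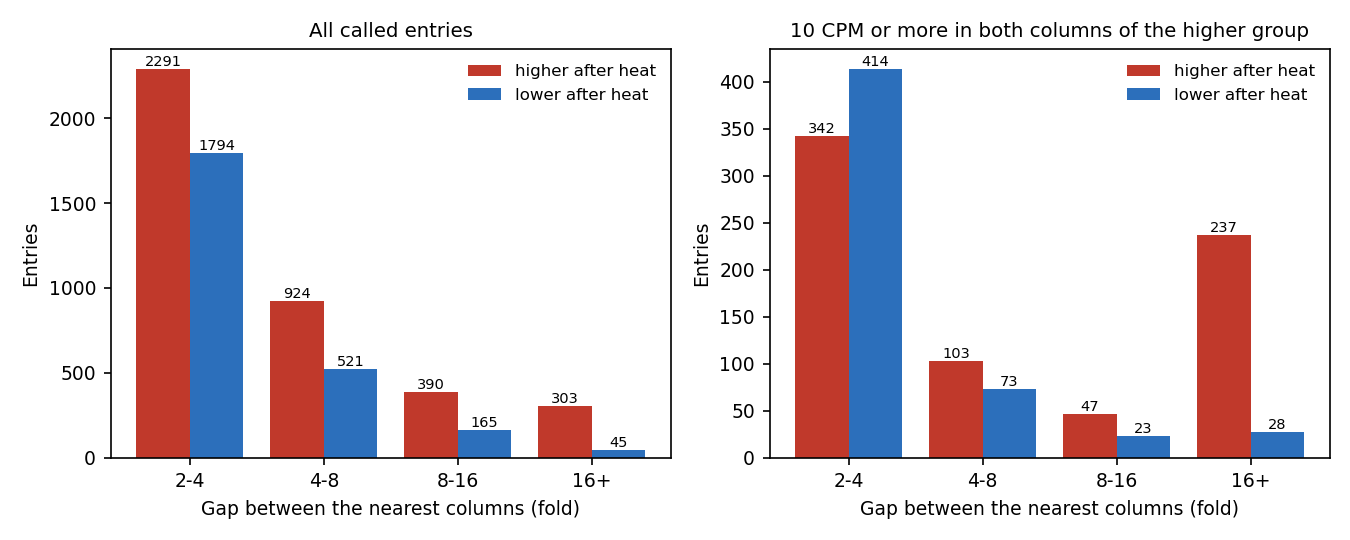
Number of called entries by the size of the gap between the nearest heat and control columns, for all calls on the left and for calls with at least 10 CPM in both columns of the higher library on the right. On the right, decreases lead at 2-fold to 4-fold (342 higher, 414 lower) and increases at 16-fold or more (237 higher, 28 lower).

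The frequency and the direction of calls varied with expression level. At a mean level of 0.5 to 1 CPM, 9.86% of 10405 entries were called higher and 5.85% lower. The filter admits an entry to this bin only with 1 library at 1 CPM or more and the other below it. A difference between the libraries is thus partly built into this bin. The shares were smallest at 10 to 30 CPM, where 3.28% of 9444 entries were called higher and 2.48% lower. They were 4.21% and 3.96% of 1188 entries at 100 to 300 CPM, and 3.31% higher against 5.30% lower of the 453 entries at 300 CPM or more. The share of calls that were increases declined step by step along these levels, from 62.8% in the lowest bin to 38.5% in the highest, where it rests on 15 higher and 24 lower calls.

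The spread between columns of the same library also changed with level, and not in the same way in both libraries. At 0.5 to 1 CPM the heat columns lay 2-fold or more apart for 48.9% of entries and the control columns for 32.1%. Each entry of this bin has 1 library under 1 CPM, where the pseudocount narrows the difference between columns. The median log2 ratio of heat to control was 0.88 there, so that library was more often the control. At 1 to 2 CPM, where the filter leaves out no entry, the shares were 44.3% and 34.2%. At 300 CPM or more the figures were 0.442% for the heat columns and 8.61% for the control columns. Heat columns were thus the less alike at low levels and the more alike at high levels. At 30 to 100 CPM the median absolute log2 difference was 0.32 between the heat and control libraries, against 0.092 between the heat columns and 0.18 between the control columns. At 1 to 2 CPM the libraries differed by 0.82 and the heat columns by 0.81, while the control columns differed by 0.52, so that the typical difference between treatments was close to that between the heat columns.

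**Figure D4:**
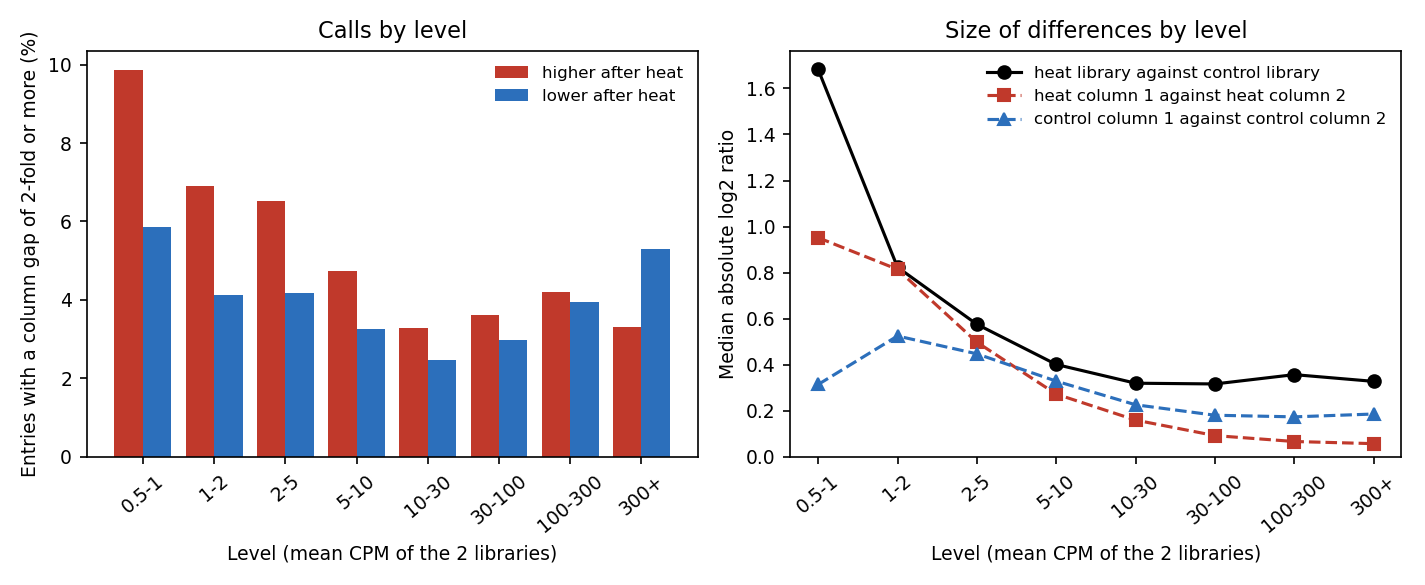
Left, percent of measured entries with a column gap of 2-fold or more, by the mean CPM of the heat and control libraries; right, the median absolute log2 ratio between the libraries and between the columns of each library in the same bins. Calls are most frequent in the lowest bin (9.86% higher, 5.85% lower), where the heat columns differ from each other most. The filter admits an entry to that bin only with 1 library at 1 CPM or more and the other below it.

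Agreement of the treatment difference across columns rose with level. The log2 ratio of heat column 1 to control column 1 correlated across entries with that of heat column 2 to control column 2 at a Pearson's r of 0.219 over all 63276 entries (Spearman's rho 0.289). At 30 CPM or more r was 0.602 over 5654 entries (rho 0.638), and at 100 CPM or more it was 0.682 over 1641 entries (rho 0.677). Crossing the column numbers gave 0.213, 0.621 and 0.699 at the same levels. The 2 ratios of such a pair share no column, but they share the assembly and the level of the entry, and entries are not independent of each other. The log2 ratio between the heat columns was unrelated to that between the control columns, with r between -0.058 and 0.0056.

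The most abundant entries were, as a body, lower after heat. For the order of the columns, the share at random is again 16.7% each way, with the limit given above. Over all 63276 measured entries, both heat columns lay below both control columns for 22% and above both for 24.8%. Among the 1641 entries at 100 CPM or more, both heat columns lay below both control columns for 783 (47.7%) and above both for 428 (26.1%), and the median log2 ratio was -0.16. Scaling moved these counts without turning them round: with plain totals in place of TMM (trimmed mean of M values) there were 671 lower and 491 higher and the median was -0.10. The 2-fold calls at this level were few and nearly even, at 65 higher and 71 lower, and they turned to 71 higher and 60 lower with plain totals and to 69 and 67 with DESeq2 size factors. Without control column 2 the lower calls came to 146. Of the 100 entries with the highest control levels, 81 had a lower value after heat and 64 had no overlap of columns in that direction. That list was picked by its control values. Of the 100 highest in the heat library, 48 had a higher value after heat, and 67 entries stood in both lists.

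Counts were less concentrated in the top entries after heat. The 1000 most abundant entries of a column took 38.1% and 39.3% of the counts in the heat columns, against 44.2% and 41.7% in the control columns, so the columns of the libraries did not overlap. In the 10 most abundant entries the shares were 2.36% and 2.41% after heat and 4.44% and 3.07% in the control. At 1 CPM or more there were 54841 and 49332 entries in the heat columns, and 47996 and 48617 in the control columns. Over the summed libraries, 13373 entries reached 1 CPM only after heat, 9040 only in the control, and 40863 in both.

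The called entries carried a small part of the transcripts. Those called higher made up 6.76% and 6.68% of the heat columns, against 0.915% and 1.03% of the control columns. Those called lower made up 1.80% of each heat column and 6.12% and 6.14% of the control columns. These shares describe the lists and were fixed by how they were chosen.

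Presence in one library alone was counted next. Both heat columns held 1 CPM or more while both control columns held 0 counts for 1667 entries (2.63% of those measured). The reverse was found for 756 entries (1.19%). The excess after heat turned round when a control column was left out, to 2875 seen only after heat and 3665 only in the control without control column 1, and to 3110 and 3420 without control column 2. Without heat column 1 there were 4627 and 1769, and without heat column 2 there were 8054 and 1621. Each time the library that lost a column gained more entries, since presence was then asked of its only column. The turn therefore cannot show what the excess rests on. Most were scarce, with a median of 3.04 CPM in the heat library for the first set and 2.49 CPM in the control library for the second. At 30 CPM or more there were 46 entries seen only after heat and 4 seen only in the control, and at 100 CPM there were 14 and 0. A count of 0 allows up to 0.129 CPM in the heat library and 0.126 CPM in the control library (3 counts), counting error only. In Matar Ageta 35.0% of the first set and 35.1% of the second had 0 counts in all 4 columns, against 17.3% of all 63276 entries. The last share covers entries at any level and was not matched to the low levels of these sets.

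Differences between the summed libraries held up across columns to a degree that depended on level. Taking the columns together, the heat library exceeded the control library 2-fold or more for 13367 entries (21.1%), and the control library exceeded the heat library to that degree for 8881 (14%), with an exact counting interval that excluded equality. Without heat column 1 the order turned, with 10266 higher and 11074 lower, and without heat column 2 there were 16710 and 11138. The 2-fold gap was met in every pairing of columns by 29.2% of the increases and 28.4% of the decreases. The columns of the 2 treatments overlapped for 49.7% of the higher and 44.4% of the lower entries. Among entries at 10 CPM or more the overlap was 6.12% of 915 higher entries and 14.5% of 876 lower entries. Overlap of columns was thus largely a matter of scarce entries.

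Single columns that stood above the other 3 were of 2 kinds. Heat column 1 was 4-fold or more above every other column, at 10 CPM or more, for 340 entries, but none of these (0) reached 100 CPM and together they held 0.565% of the column. Heat column 2 had 108 such entries. Control column 1 had 213, of which 21 reached 100 CPM and the highest stood at 7285 CPM, and together they held 3.23% of that column. Control column 2 had 196, with 8 at 100 CPM or more and 0.667% of the column. An entry of this kind raises the sum of its library, and it is column-consistent only where the second column of that library also clears the 2-fold gap. Heat columns 1 and 2 stood 4-fold or more below the other 3, each of those at 10 CPM or more, for 47 and 54 entries. Control columns 1 and 2 did so for 128 and 105.

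Calls were unevenly placed along the cluster numbers in the identifiers, the first number that the assembly gives to a group of entries. The numbers were divided into 70 windows of 1000, and 27 windows, in 4 unbroken runs, held 1000 or more measured entries each. Entries count as measured at 1 CPM in either library, and 13373 reached it only after heat against 9040 only in the control. A window can therefore be dense through entries raised in 1 library, so density is not independent of the direction of calls. In these dense windows 2704 entries (8.14% of 33204) were called higher and 528 (1.59%) lower, so that 83.7% of calls were increases. In the other 43 windows 1204 entries (4% of 30072) were called higher and 1997 (6.64%) lower, or 37.6% increases. All 27 dense windows had more increases than decreases, and 38 of the other 43 had more decreases. The heat columns differed from each other in the same pattern. Heat column 1 was 2-fold or more above heat column 2 for 27.6% of entries in dense windows and 7.22% elsewhere, and the reverse held for 3.39% in dense windows and 17.9% elsewhere. Between the control columns the shares were alike in both kinds of window. Control column 1 was 2-fold or more above control column 2 for 11.3% of entries in dense windows and 11.9% elsewhere, and the reverse held for 11.9% and 13.4%. The part of this difference between the heat columns in the direction of the calls was not tested.

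The contrast between windows narrowed with level. At 10 CPM or more, increases made up 66.2% of calls in dense windows (362 higher, 185 lower) and 39.8% elsewhere (158 higher, 239 lower). At 100 CPM or more they made up 50.0% in dense windows (34 higher, 34 lower) and 45.6% elsewhere (31 higher, 37 lower). There heat column 1 was 2-fold or more above heat column 2 for at most 0.648% of entries in either kind of window. The reverse also held for at most 0.648%. The 237 large increases were found in both kinds, with 154 in dense windows and 83 elsewhere. This is close to the split of all entries at a mean level of 10 CPM or more, with 9705 and 5393. The 28 large decreases were 3 in dense windows and 25 elsewhere.

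**Figure D5:**
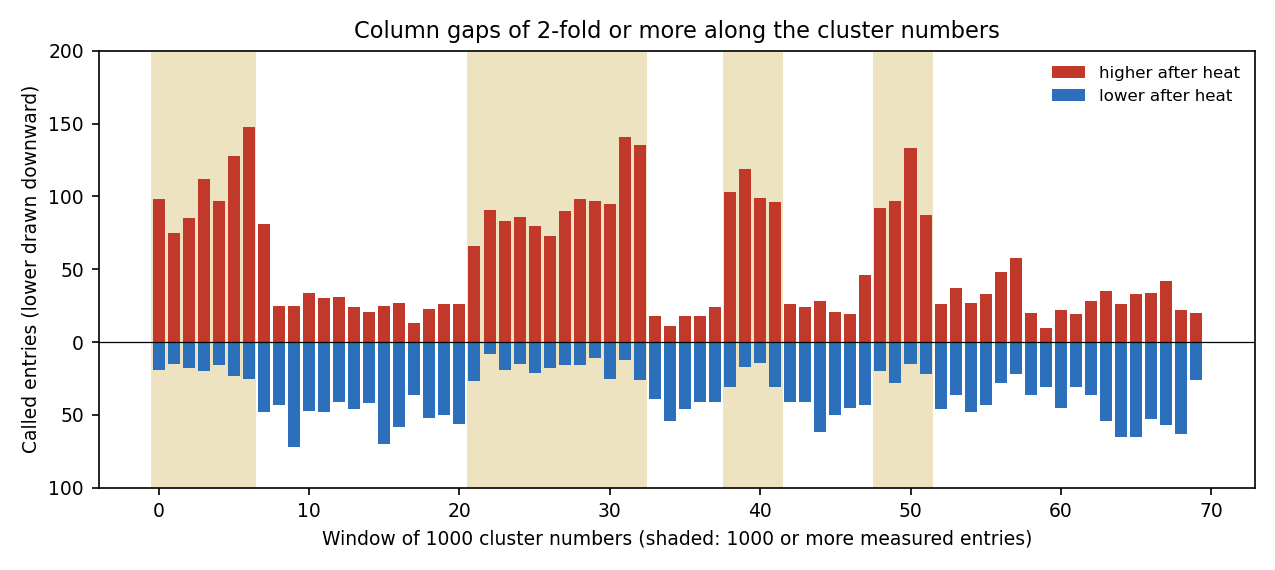
Number of entries called higher (upward) and lower (drawn downward) after heat in each of 70 windows of 1000 cluster numbers, with the 27 windows of 1000 or more measured entries shaded. Increases outnumber decreases in every shaded window, and decreases lead in 38 of the other 43.

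Clusters with entries called in opposite directions were few. Of 48004 clusters with a measured entry, 11086 had 2 or more. In 251 clusters at least 2 entries were called higher and in 51 at least 2 were called lower, while 44 clusters held entries called in both directions. The summed level of 30 of these 44 was within 2-fold between heat and control. After summing counts over each cluster, 2576 of 49115 clusters (5.24%) were higher and 2011 (4.09%) lower in every pairing of columns. The cluster sum was called the same way for 67.1% of the entries called higher and 73.5% of those called lower. Only 1922 of the 3908 higher and 842 of the 2525 lower entries lay in clusters with 2 or more measured entries. For the others the sum is mainly the entry itself, so much of this agreement is built in.

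The same entries were looked up in Matar Ageta, whose columns were scaled separately, so that only ratios within that cultivar are used. By the same rule 1694 of 55205 entries (3.07%) were higher and 2424 (4.39%) lower after heat there. Of the 3908 entries called higher in Arka Chaitra, 1867 were measured in Matar Ageta, where 151 (8.09%) were called higher and 144 (7.71%) lower. The 151 were 17.4% of the 870 higher calls of Matar Ageta among entries measured in both cultivars. Of the 1625 measured decreases, 91 (5.60%) were also lower in Matar Ageta, which is 4.97% of its 1832 lower calls, and 35 (2.15%) were higher. Over all 41680 entries measured in both cultivars, Matar Ageta had 2.09% called higher and 4.4% called lower. Of the 237 with a gap of 16-fold or more, 152 were measured in Matar Ageta, where 46 (30.3%) were called higher and 19 (12.5%) lower. Another 45 of the 237 (19.0%) had 0 counts in all 4 of its columns, against 17.3% of all 63276 entries at any level. Among entries at a mean level of 10 CPM or more, the share was lower, at 7.62% in dense windows and 2.52% elsewhere. Of the 20 largest gaps in the higher direction, 15 were measured in Matar Ageta, where 8 were called higher and 2 lower. Of the 20 in the lower direction, 18 were measured there, with 0 called higher and 2 lower.

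The 4 printed entries went different ways in Matar Ageta. TRINITY_GG_68082_c0_g1 had 30.8 and 30.3 CPM in its heat columns and 0 in both control columns. TRINITY_GG_43893_c0_g1 had 76.9 and 123 CPM in its heat columns and 99.5 and 81.8 CPM in its control columns, which overlap. TRINITY_GG_41082_c0_g1, which was higher after heat in Arka Chaitra, had 1257 and 1355 CPM after heat and 1839 and 2092 CPM in the control. TRINITY_GG_59621_c0_g1 had 5231 and 1604 CPM after heat, against 833 and 1330 CPM in the control, where both heat columns lay above. Whether the responses of the cultivars differ for any entry was not tested, since each has 1 library per treatment.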

How the data were processed

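RNA of unopened buds was prepared with a SMARTER mRNA kit, per the labels' protocols. Per the submitters' processing notes, the tools were DESeq2, RSEM, Bowtie2, STAR and FastQC, with versions, roles and genome build not given in the sources used here. Per cultivar, a pair of tables was deposited. The authors gave expected counts per assembled gene, which are not whole numbers, and a signal marked as TMM that is the count times 1 constant per column.

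Estimated counts were rounded only for scaling factors and exact intervals. Columns were scaled with TMM over the 4 Arka Chaitra columns (edgeR 4.0.16, R 4.3.3; DESeq2 1.42.0 for an alternative), and CPM of a library is its summed counts over its summed effective sizes. Entries under 1 CPM in both libraries were left out, and ratios carry 0.5 CPM. No p-value is given, because each treatment has 1 sample. The interval for a ratio is Clopper-Pearson and that for a level exact Poisson, at 95%. The scripts were tested on simulated data. The rules, lists and members were chosen with earlier results of these data known. Gene lists by name could not be used. The printed entries were the largest gap and the highest level among calls with 10 CPM in both columns of the higher library. The density of windows, and alternatives that rest on it or on summed libraries of both cultivars, were chosen after seeing the data.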

Additional observations from a re-analysis of the deposited data

Results flagged for a closer look

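Among the 4 printed entries, 2 went opposite ways in the cultivars, in both columns of each library. TRINITY_GG_41082_c0_g1 had a log2 ratio of heat to control of 1.43 in Arka Chaitra and -0.60 in Matar Ageta. TRINITY_GG_59621_c0_g1 had -1.59 in Arka Chaitra and 1.87 in Matar Ageta, where its heat columns differed widely. By the 2-fold gap rule, 144 entries that were higher with heat in Arka Chaitra were lower with heat in Matar Ageta, and 35 showed the reverse. The 144 are 7.71% of the Arka Chaitra increases measured in Matar Ageta, where 4.4% of all entries measured in both cultivars were called lower. The 35 are 2.15% of the decreases, near the 2.09% of all such entries called higher in Matar Ageta. The difference between the cultivars was not tested for any of these.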

How the results depend on the processing

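No paired analysis was possible because each treatment has 1 sample and the numbers of the columns are not explained. The counts of higher and lower calls stayed within 1.5 times under each scaling tried (plain totals, TMM over 8 columns or over summed libraries, DESeq2 size factors, the deposited signal), both other pseudocounts and no filter. The share of increases was 64.0% with plain totals and 59.3% without a filter. With at least 5 CPM in either library there were 1544 higher and 1055 lower calls (59.4% increases), 8713 and 7793 without overlap, 3258 and 2495 from summed libraries, and 502 seen only after heat against 147 only in the control. Counts summed per cluster gave 2576 higher calls (56.2% increases), 7406 higher from summed libraries, and 773 against 344 seen in 1 treatment only. In windows with fewer than 1000 measured entries there were 1204 higher calls, and 37.6% of calls were increases. Leaving out 1 column at a time gave 6679 to 13268 higher and 4863 to 6985 lower calls, with 48.9% to 71.6% increases. Entries without overlap came to 21383 to 30705 above and 18849 to 24063 below. Those seen only after heat came to 2875 to 8054, against 1621 to 3665 only in the control. In these counts the order of the 2 directions turned when either control column was left out. A rule over fewer columns is met more often by construction. The counts rose by more entries in the direction where the library that lost a column was the higher. The turn therefore cannot show that the excess rests on the control columns. Gaps of 8-fold or more depended on the pseudocount, at 2303 higher and 1027 lower with 0.1 CPM and 356 and 70 with 1 CPM. At 1 CPM an entry rests on 10.8 to 12.9 counts per column.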
